A study of Mus musculus with 6 samples.

Results

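Long intergenic noncoding RNAs (lincRNAs) that were expressed in LPS-treated macrophages were compared between control and PGAM5 KD iBMDMs. The members are the genes that GENCODE M21 (GRCm38) types as lincRNA, with at least 200 bases of exon and a mean of at least 1 FPKM over all 6 libraries, where FPKM is the number of fragments per kilobase of exon scaled to library depth. Of 54532 deposited genes, 5535 were lincRNAs. Of these, 4502 were at 0 in every library and 128 passed the rule. The members were thus chosen by their mean level over both groups, and the difference between the groups was not used. Of the 128 members, 107 had a mean of at least 1 FPKM in both groups, 7 had a control mean under 1 FPKM and 14 had a PGAM5 KD mean under 1 FPKM. A member of the last 21 passed only through its higher group. At the edge of the rule, Ftx with a mean of 1.01 FPKM and Gm41442 with 1.02 FPKM were just inside, and D5Ertd605e with 0.994 FPKM and D730003I15Rik with 0.991 FPKM were just outside.

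iBMDMs are a macrophage line, made in earlier work by immortalizing bone marrow-derived macrophages of wild type mice with retroviruses. Both groups carry a lentiviral shRNA, shControl in the control group and shPGAM5 in the PGAM5 KD group, and both received LPS (100 ng/ml) for 4 hours, with 3 libraries per group. LPS is a bacterial cell wall component that activates TLR4, and PGAM5 is a mitochondrial protein phosphatase. No library came from untreated cells, so induction by LPS was not measured, and each group has its own shRNA and transduced line, so effects of PGAM5, of the shRNA sequence and of the line cannot be told apart. The sources do not say whether the libraries of a group came from separate cultures, so p-values measure the spread between libraries, which may be technical.

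A lincRNA is transcribed between protein-coding genes, is usually spliced and polyadenylated like an mRNA, and carries no long open reading frame. Neat1 is the scaffold of paraspeckles and Malat1 localizes to nuclear speckles. Some other members are hosts from whose transcripts microRNAs or small nucleolar RNAs are cut, and a few are known in macrophages because LPS induces them, as with Ptgs2os2 (lincRNA-Cox2) and Mir155hg. For most members that carry a clone name or a Gm number no function is known.

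Fragment depth recovered from the FPKM values was between 18163463 and 24388917 per library. Pgam5 had 17.1, 13.0 and 13.4 FPKM in control libraries and 4.33, 5.75 and 4.53 FPKM in PGAM5 KD libraries (log2 fold change -1.40, standard error 0.13, adjusted p = 0.000358 from limma). Of 9 macrophage markers, 8 had at least 1 FPKM and Mertk was listed at 0. Their summed level was between 2977 and 3062 FPKM in control and between 2689 and 2717 FPKM in PGAM5 KD libraries. The markers did not move one way. Lyz2, the marker with the highest level in both groups, had means of 1666 FPKM in control and 1265 FPKM in PGAM5 KD libraries. Cd68, Csf1r and Spi1 also had lower means in PGAM5 KD libraries (468 to 406, 231 to 148 and 169.8 to 164.6 FPKM). Cd14, Adgre1, Fcgr1 and Itgam had higher means (461 to 683, 7.93 to 15.1, 4.34 to 14.1 and 2.41 to 4.46 FPKM). The part of these differences in the lincRNA results was not tested. None of the 8 neutrophil, 6 fibroblast and 6 lymphocyte markers reached 1 FPKM, and each of these lists summed to at most 0.568 FPKM in any library.

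Malat1 and Neat1 end in a structure that few RNAs share, which bears on how poly(A) libraries see them. Both are cut at their 3′ end by RNase P, and the mature end (for Neat1, that of the long form) is an A-rich tract that folds back on U-rich stretches in place of a poly(A) tail. The 100 bases up to the tract are shown as DNA from GRCm38, minus strand, at chr19:5795982-5796081 for Malat1 and chr19:5824708-5824807 for Neat1. Capitals mark the letters searched, TTTT followed by GC and TTTT, and the A-rich counterpart AAAA followed by GC and AAAA. Of the longest transcripts of 55450 genes, 2 held both within 100 bases, and these are the pair.
Malat1: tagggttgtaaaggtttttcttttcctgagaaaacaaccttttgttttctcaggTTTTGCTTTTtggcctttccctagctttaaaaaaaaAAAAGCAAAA
Neat1: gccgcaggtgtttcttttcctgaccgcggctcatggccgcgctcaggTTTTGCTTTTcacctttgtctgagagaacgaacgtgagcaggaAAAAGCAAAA

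Mir17hg is the host of the miR-17-92 cluster, which is known for promoting growth and restraining apoptosis. The main mature microRNAs inside its exon are shown from RefSeq (GRCm38.p6), all on the plus strand of chr14 between 115043684 and 115044496, with the seed (bases 2 to 8) in capitals. miR-17-5p and miR-20a-5p share a seed, as do miR-19a-3p and miR-19b-3p, while miR-18a-5p and miR-92a-3p each have their own.
miR-17-5p: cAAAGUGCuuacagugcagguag
miR-20a-5p: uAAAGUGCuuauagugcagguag
miR-18a-5p: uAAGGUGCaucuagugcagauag
miR-19a-3p: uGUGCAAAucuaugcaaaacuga
miR-19b-3p: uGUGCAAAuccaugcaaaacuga
miR-92a-3p: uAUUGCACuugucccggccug

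The promoters of a few members described below are shown from RefSeq (GRCm38.p6), from 250 bases before to 50 bases after the start. They were picked because they hold a motif of the LPS response in capitals: in Ptgs2os2 (chr1:150164899-150165198, minus strand) an ISRE, the element bound by interferon regulatory factors; in 3300005D01Rik (chr17:5798407-5798706, plus strand) an AP-1 site; and in Gm34643 (chr14:103012625-103012924, plus strand) an AP-1 site, followed after the start by an NF-kB motif.
Ptgs2os2: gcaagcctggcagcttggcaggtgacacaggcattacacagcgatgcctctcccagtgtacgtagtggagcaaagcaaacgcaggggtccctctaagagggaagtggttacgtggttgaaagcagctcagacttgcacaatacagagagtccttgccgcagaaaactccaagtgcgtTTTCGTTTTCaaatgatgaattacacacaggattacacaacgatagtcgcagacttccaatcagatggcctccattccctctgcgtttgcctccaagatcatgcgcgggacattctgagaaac
3300005D01Rik: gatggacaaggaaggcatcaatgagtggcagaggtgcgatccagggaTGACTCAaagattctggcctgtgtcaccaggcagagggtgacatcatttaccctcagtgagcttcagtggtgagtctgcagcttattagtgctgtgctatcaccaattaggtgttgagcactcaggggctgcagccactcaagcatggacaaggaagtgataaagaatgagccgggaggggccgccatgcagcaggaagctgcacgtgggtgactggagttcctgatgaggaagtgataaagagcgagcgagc
Gm34643: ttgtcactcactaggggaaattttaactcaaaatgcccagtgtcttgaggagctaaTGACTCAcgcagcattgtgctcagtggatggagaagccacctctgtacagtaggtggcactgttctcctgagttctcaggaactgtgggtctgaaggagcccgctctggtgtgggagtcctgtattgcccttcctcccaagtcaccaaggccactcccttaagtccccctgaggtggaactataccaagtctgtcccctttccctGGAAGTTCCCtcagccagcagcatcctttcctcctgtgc

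The members spanned a mean level from 1.01 to 124.9 FPKM, with a median of 2.43 FPKM. Of the 128, 18 had at least 10 FPKM, 65 had between 2 and 10 FPKM and 45 had between 1 and 2 FPKM. Their summed exon length ran from 254 to 20771 bases (median 1428), 116 had more than 1 exon, and they lay on 20 chromosomes. In a library, the median member had between 64.5 and 87 fragments. The median standard error of the log2 fold change was 0.16 for members and 0.072 for all genes tested.

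Summed over the members, the level was 925.7 ± 47.2 FPKM in control (SD, n = 3) and 773.2 ± 11.3 FPKM in PGAM5 KD libraries (SD, n = 3). This was between 0.292% and 0.321% of all FPKM in control libraries and between 0.239% and 0.242% in PGAM5 KD libraries, so the ranges did not overlap. The 4 members with the highest level, among them Gm10076, whose level is uncertain (below), held between 30.8% and 41.5% of the sum. The median member did not follow the sum, with 2.43, 2.61 and 2.49 FPKM in control and 2.54, 2.47 and 2.87 FPKM in PGAM5 KD libraries. The summed FPKM of all genes moved the other way, from between 304393 and 304889 in control to between 317936 and 324298 in PGAM5 KD libraries.

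Gm43351, the member with the highest level, had 149, 127 and 149 FPKM in control and 111, 109 and 105 FPKM in PGAM5 KD libraries. Gm26917, which holds ribosomal RNA-like sequence and is often read as a sign of ribosomal RNA in a library, had 95.7, 99.0 and 98.6 FPKM in control and 53.6, 72.4 and 68.3 FPKM in PGAM5 KD libraries. Both were lower in PGAM5 KD cells without overlap, by -0.38 (standard error 0.06, limma adjusted p = 0.00538) and -0.60 (standard error 0.10, adjusted p = 0.00552) in log2 fold change. Gm10076 ranked next, with 107, 37.6 and 46.7 FPKM in control and 28.8, 38.4 and 43.2 FPKM in PGAM5 KD libraries. Its groups overlapped, control replicate 1 stood far above the other libraries, and the change was not past the threshold (log2 fold change -0.64, standard error 0.36, adjusted p = 0.224). Without control replicate 1 the log2 fold change was -0.20. Gm10076 is 99.0% identical over 383 bases to the ribosomal protein gene Rpl41, which had a mean of 648 FPKM, so its level is uncertain.

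Further down the order, Gm42047 had 54.6, 51.0 and 50.3 FPKM in control and 41.8, 44.9 and 43.1 FPKM in PGAM5 KD libraries, a fall of smaller size (log2 fold change -0.26, standard error 0.05, adjusted p = 0.0059 from limma). 1810058I24Rik, typed lincRNA in GENCODE M21 although RefSeq lists it as the coding gene of the mitochondrial micropeptide Stmp1 (Mm47), had 20.3, 19.5 and 19.7 FPKM in control and 14.8, 14.6 and 14.5 FPKM in PGAM5 KD libraries. Replicates lay close together here, and the fall was called (-0.42, standard error 0.04, adjusted p = 0.000381). 2900097C17Rik, the mouse Norad, which binds Pumilio proteins and guards chromosome number, had between 27.5 and 29.3 FPKM in control and between 23.4 and 26.3 FPKM in PGAM5 KD libraries. Its groups did not overlap but it missed the threshold (-0.16, standard error 0.05, adjusted p = 0.0575). It passed the threshold at a minimum of 5 FPKM, with quantile normalization, as TPM, with array weights, with voom and without PGAM5 KD replicate 1 (adjusted p from 0.0151 to 0.0487), so the call is near the threshold. It shares 99.2% identity over 2537 bases with the member Gm7292. G730013B05Rik had 18.1 ± 0.776 FPKM in control and 20.3 ± 1.61 FPKM in PGAM5 KD libraries (SD, n = 3), overlapped and was not called (0.15, adjusted p = 0.119).

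**Figure D1:**
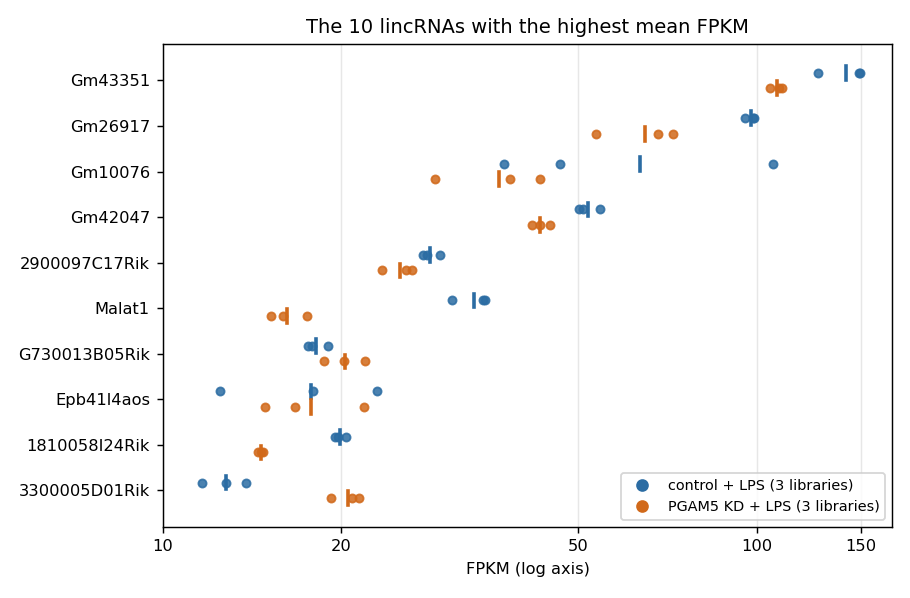
FPKM (log axis) of the 10 lincRNAs with the highest mean level, with 1 point per library, control in blue and PGAM5 KD in orange, and a vertical bar at the mean of 3 libraries. Gm43351, Gm26917, Gm42047, Malat1, 1810058I24Rik and 2900097C17Rik (the last not called) lie lower in every PGAM5 KD library, 3300005D01Rik lies higher, and control replicate 1 of Gm10076 stands apart at 107 FPKM.

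Across the 128 members, 13 (10.2%) passed an adjusted p of 0.05 with a higher level in PGAM5 KD cells and 27 (21.1%) with a lower one, in limma on log2(FPKM + 1) adjusted over 10540 genes. Of all genes tested, 16.8% were higher and 14.9% were lower. A log2 fold change beyond 1 was then asked for as well. The study's methods set the same number for fold changes from iDEP, while here it applies to log2(FPKM + 1), which understates the change of low genes. With it, 2 members were higher (Gm14275, Gm13710) and 3 were lower (CT030636.1, Gm38150, Malat1), beside 0.787% and 0.531% of all genes. This count of 5 moved with the scale, to 16 with a pseudocount of 0.1 or with voom and to 11 as TPM. It fell to 2, both higher, without PGAM5 KD replicate 3 and to 3 without control replicate 1 or 3 or PGAM5 KD replicate 1. With a library left out, 4 of the 5 members came under a log2 fold change of 1 in size, at the least 0.87 for Gm13710, -0.85 for CT030636.1, -0.88 for Gm38150 and -0.96 for Malat1, while Gm14275 stayed at 1.14 or more. Malat1 lies nearest the edge, with a log2 fold change of -1.001 that became -0.993 with median centring and -0.984 with array weights, while its adjusted p stayed at or under 0.00129 in all alternatives. Gm14275 and CT030636.1 are among the 21 members that passed the rule only through their higher group. Among the 107 members with a mean of at least 1 FPKM in both groups, 9 were higher and 22 were lower, and 1 and 2 of them passed both thresholds. The libraries of both groups did not overlap for 52 members, or 40.6%, beside 47.1% of all genes tested. For such a member the exact two-sided permutation test gives p = 0.1, the smallest that 3 against 3 libraries allow. All 40 called members were among the 52.

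The median log2 fold change of the members was -0.11 (quartiles -0.40 and 0.17), beside 0.013 for all genes tested and 0.013 for the 9338 protein-coding genes. The members' median was -0.21 as TPM, where that of all genes was -0.060, and -0.219 among the 39 members left at a minimum of 5 FPKM. Of the members, 53 had a positive and 75 a negative value. Other noncoding classes had negative medians too, at -0.19 for 70 antisense genes (3 higher, 9 lower) and -0.11 for 58 processed transcripts (4 higher, 13 lower). The 30 members whose exons overlap another gene had a median of -0.23, and without them the median was -0.056, with 12 higher and 20 lower of 98. The 30 include Gm26792 and Gm38399, which overlap the expressed coding genes Cuedc2 and Nav1. They also include Malat1, Neat1 and Mir17hg, whose exons overlap only noncoding entries that were listed at 0. Whether the libraries kept strand is not given in the sources used here, so fragments from bases shared by overlapping genes cannot be told apart. The part of such overlaps in the lower median was not tested.

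**Figure D2:**
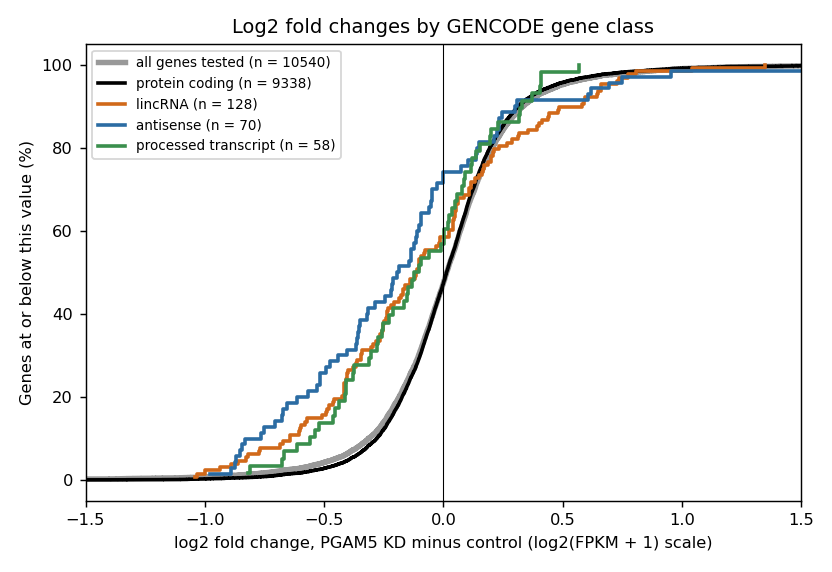
Cumulative share of genes (y axis, %) at or below each log2 fold change (x axis, PGAM5 KD minus control on the log2(FPKM + 1) scale, drawn from -1.5 to 1.5), for all genes tested, protein-coding genes, lincRNAs, antisense genes and processed transcripts. The curves of the noncoding classes lie left of the coding curve below 0, with medians of -0.11 for lincRNAs and 0.013 for protein-coding genes.

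Calls were spread unevenly over depth. Of 25 members with at least 300 fragments per library on average, 2 were higher and 12 were lower, or 8% and 48%, beside 18.6% and 17.6% of the 7838 genes tested at that depth. Among 31 members with 100 to 300 fragments, 3 were higher and 5 were lower, or 9.68% and 16.1%, beside 13.9% and 7.34% of all genes. Among 44 members with 30 to 100 fragments, 7 were higher and 6 were lower, or 15.9% and 13.6%, beside 11.3% and 6.29% of all genes. Among 28 members under 30 fragments 1 was higher and 4 were lower, or 3.57% and 14.3%, beside 5.03% and 8.65% of all genes. The median level of the called rises was 2.81 FPKM and that of the called falls 4.86 FPKM. Of the 40 called members, 16 had under 30 fragments in some library.

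**Figure D3:**
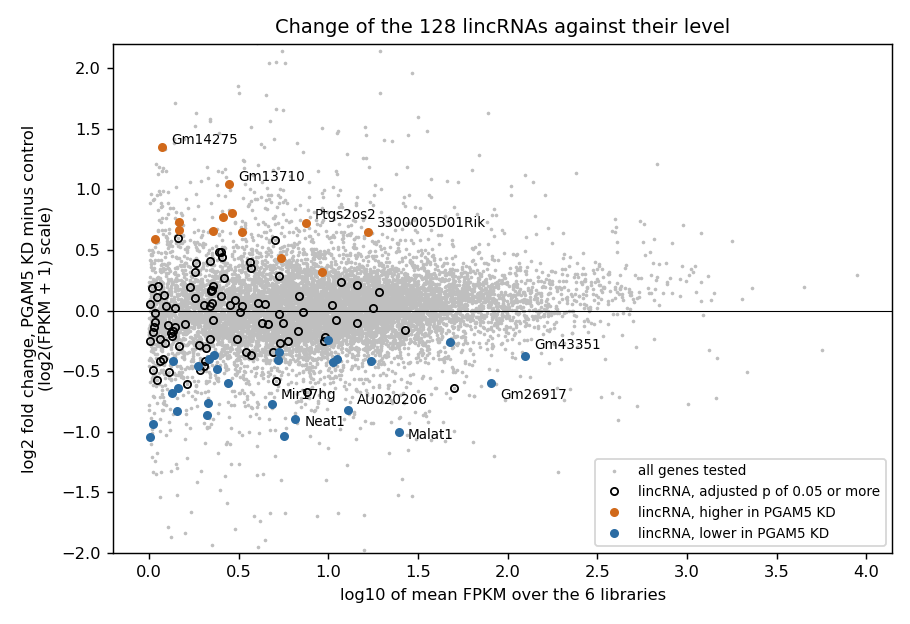
Log2 fold change (y axis) against the log10 of the mean FPKM (x axis) for the 128 lincRNAs, filled where called (blue lower, orange higher) and open where not, over all genes tested in grey; 10 genes tested lie outside the drawn range. Called falls reach up to the most abundant member, Gm43351, while no called rise lies above 3300005D01Rik.

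Malat1 and Neat1, which localize to nuclear bodies, were both about 2.06 times as high in control as in PGAM5 KD cells. Malat1 (chr19:5795690-5802672, minus strand) had 30.7, 34.6 and 34.9 FPKM in control libraries and 15.2, 17.5 and 15.9 FPKM in PGAM5 KD libraries, with 2217 to 4882 fragments each. Every PGAM5 KD library was below every control library (log2 fold change -1.001, standard error 0.07, adjusted p = 0.000117 from limma). Neat1 (chr19:5824708-5845478, minus strand) had 9.93, 8.51 and 8.06 FPKM in control libraries and 4.10, 4.32 and 4.42 FPKM in PGAM5 KD libraries. It too did not overlap (-0.89, standard error 0.08, adjusted p = 0.000343). The genes lie 22036 bases apart on the same strand. In Malat1, 292 annotated bases follow the A-rich tract shown above, while in Neat1 the tract ends the 20771-base transcript. The libraries were made from RNA bound to poly-T beads, so the values count molecules that such beads retain and need not follow the total amount of either RNA. Stretches of about 150 bases of Malat1 are at least 95% identical to 7 expressed coding genes.

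AU020206, Mir17hg and 4632404H12Rik also fell, each with at least 202 fragments in every library. AU020206 (chr7:75769038-75782099, minus strand) had 17.4, 15.3 and 17.4 FPKM in control libraries and 8.90, 9.01 and 9.18 FPKM in PGAM5 KD libraries, with no overlap (log2 fold change -0.82, standard error 0.06, adjusted p = 0.000155 from limma). Mir17hg (chr14:115042879-115046727, plus strand) had 6.94, 6.29 and 5.94 FPKM in control and 3.05, 3.15 and 3.81 FPKM in PGAM5 KD libraries. The host of the microRNAs shown above was thus lower in every PGAM5 KD library (-0.77, standard error 0.09, adjusted p = 0.00113). The 6 microRNA precursor genes inside it were listed at 0, and mature microRNAs are too short to be measured in these libraries. 4632404H12Rik, with 3.56, 3.47 and 3.50 FPKM in control and 1.83, 2.09 and 2.01 FPKM in PGAM5 KD libraries, was lower by a like margin in each (-0.60, standard error 0.08, adjusted p = 0.00147).

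The remaining large falls rested on fewer fragments. Gm38150, a single-exon member, had 9.50, 6.47 and 7.82 FPKM in control and 2.52, 4.63 and 3.08 FPKM in PGAM5 KD libraries, from 25 to 78 fragments (-1.03, standard error 0.19, adjusted p = 0.00759 from limma). It lies within an intron of Lsmem2, a member on the opposite strand with 9.25, 12.5 and 7.08 FPKM in control and 3.70, 6.86 and 6.44 FPKM in PGAM5 KD libraries, which did not overlap but missed the threshold (-0.67, standard error 0.24, adjusted p = 0.0761). CT030636.1 had 8, 7 and 10 fragments in control and 2, 3 and 0 in PGAM5 KD libraries, and CT030636.2, which lies 4086 bases away on the same strand, had 11, 7 and 17 fragments in control and 3, 2 and 4 in PGAM5 KD libraries. Both passed the test (adjusted p = 0.0102 and 0.0156), and with counts of this size the fold is poorly fixed. The log2 fold change of CT030636.1 was -1.04, but -2.46 with a pseudocount of 0.1, -2.65 with voom and -1.82 as TPM, and that of CT030636.2 was -0.94, but -1.83, -1.88 and -1.53. CT030636.1 and CT030636.2 had PGAM5 KD means of 0.336 and 0.388 FPKM, so they passed the rule only through their control level, as did 4930461G14Rik. Gm26520, 4930461G14Rik and Gm44659 had control means of 2.98, 2.09 and 2.96 FPKM and PGAM5 KD means of 1.23, 0.780 and 1.28 FPKM. Leaving out a library ended their calls: for Gm26520 without control replicate 1 or 2 or PGAM5 KD replicate 3 (adjusted p up to 0.0572), for 4930461G14Rik without control replicate 1 (0.0513), and for Gm44659 without control replicate 3 or PGAM5 KD replicate 1 or 2 (up to 0.1). Their log2 fold changes stayed negative, between -1.07 and -0.53, in all of these fits.

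The 12 falls not described so far had log2 fold changes from -0.68 (Gm26792) to -0.24 (4933404O12Rik). Among them, Gm26792 and Gm42595 had PGAM5 KD means of 0.810 and 0.923 FPKM, so they too passed the rule only through their control level.

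Ptgs2os2 and 3300005D01Rik were among the better measured of the 10 largest rises. Ptgs2os2 (chr1:150159043-150164948, minus strand), which is induced by LPS in macrophages and acts on inflammatory gene expression, had 6.59, 6.05 and 3.85 FPKM in control libraries and 8.89, 9.91 and 9.87 FPKM in PGAM5 KD libraries. Control replicate 3 was the lowest, and the groups did not overlap (log2 fold change 0.73, standard error 0.16, adjusted p = 0.0152 from limma). The adjusted p was 0.0522 without PGAM5 KD replicate 3 and 0.0507 with no filter on low values, so the call is near the threshold. 3300005D01Rik (chr17:5798657-5803240, plus strand) had 13.8, 11.6 and 12.8 FPKM in control and 19.2, 21.4 and 20.8 FPKM in PGAM5 KD libraries. Its rise was called under every left-out library (0.64, standard error 0.07, adjusted p = 0.000829).

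Several of the 10 largest rises were of members low in control cells, which the rule on the mean admits only where the PGAM5 KD level is high: Gm14275, 5033406O09Rik and C430042M11Rik had control means under 1 FPKM. Gm14275 (chr2:172288133-172290520) had 0, 5 and 1 fragments in control and 29, 12 and 19 fragments in PGAM5 KD libraries, or 0.232 ± 0.304 and 2.14 ± 0.817 FPKM (SD, n = 3; log2 fold change 1.35, standard error 0.24, adjusted p = 0.00652 from limma). The size of this fold depends on the pseudocount, since the log2 fold change was 3.13 with a pseudocount of 0.1, 3.42 with voom and 2.22 as TPM. Gm13710 had 1.08, 1.80 and 1.54 FPKM in control and 3.82, 5.42 and 3.19 FPKM in PGAM5 KD libraries (1.04, standard error 0.18, adjusted p = 0.00571). 4930471E19Rik had 1.66, 1.70 and 2.16 FPKM in control and 4.76, 3.98 and 3.22 FPKM in PGAM5 KD libraries. C430042M11Rik had 0.851, 0.889 and 1.01 FPKM in control and 2.08, 2.01 and 2.00 FPKM in PGAM5 KD libraries, the tightest replicates of these 4. The last 2 were called with adjusted p of 0.00477 and 0.0029.

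Gm12606, 5033406O09Rik, 4933438A12Rik and Gm11707 were called with adjusted p between 0.026 and 0.0473, and each lost its call in 4 or 5 of the 6 fits that left out a library, while the log2 fold change stayed positive. Gm12606 rose from a mean of 1.68 to 3.47 FPKM and lost its call without control replicate 1 or any of the PGAM5 KD libraries (adjusted p up to 0.08, with log2 fold changes from 0.55 to 0.96 over the left-out libraries, beside 0.77 in all). 5033406O09Rik rose from 0.897 to 2.07 FPKM and lost its call without any library but control replicate 2 (up to 0.103, log2 fold change 0.52 to 0.96). 4933438A12Rik rose from 1.54 to 3.02 FPKM and lost its call without control replicate 1 or 2 or PGAM5 KD replicate 2 or 3 (up to 0.133, log2 fold change 0.47 to 0.82). Gm11707 rose from 2.30 to 4.31 FPKM, with 6.19 FPKM in PGAM5 KD replicate 3 alone, and lost its call without any control library or PGAM5 KD replicate 2 (up to 0.109, log2 fold change 0.41 to 0.79). With no filter on low values these 4 rises, Gm26520 and Gm44659 were not called, with adjusted p from 0.0558 to 0.129. The other 3 rises were those of Gm49249, BC002059 and Gm29340, at 0.59, 0.44 and 0.32.

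**Figure D4:**
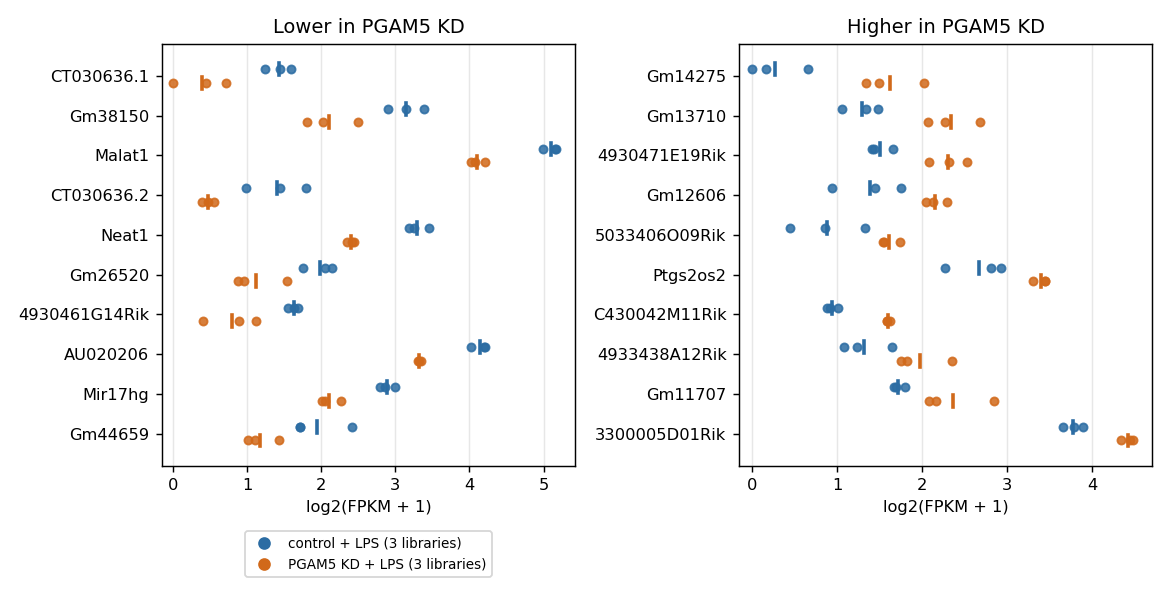
log2(FPKM + 1) in each library for the 10 lincRNAs with the largest called fall (left) and the 10 with the largest called rise (right), control in blue and PGAM5 KD in orange, with a vertical bar at the mean of 3 libraries. The groups are apart in each row, and for CT030636.1 and Gm14275 the points near 0 are libraries with 0 to 5 fragments.

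The 88 members that were not called had log2 fold changes between -0.67 and 0.59, 40 positive and 48 negative, and 12 of them did not overlap. Several well-known lincRNAs were among them. Of 21 listed small nucleolar RNA hosts, 4 were members, 13 carry another gene type, 3 were not found in the annotation and 1 was under 1 FPKM. None of the 4 was called: Snhg6 at -0.10, Snhg12 at -0.25, Snhg20 at -0.35 (adjusted p = 0.0795 from limma) and Epb41l4aos at 0.02. Outside the list, the member 2700038G22Rik holds the small nucleolar RNA Snord93 and was a called fall (-0.36, adjusted p = 0.0367). The sign of Epb41l4aos changed with the scaling, to -0.054 as TPM, so it has no direction. Snhg20 had 4.88, 3.37 and 3.81 FPKM in control and 2.54, 3.19 and 3.07 FPKM in PGAM5 KD libraries, and scaled to TPM it passed the threshold (adjusted p = 0.0426).

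Of 11 listed microRNA hosts, 3 were members and 1, Mir17hg, was called. Mir155hg, the host of miR-155, which LPS induces in macrophages, had 2.00, 1.52 and 1.00 FPKM in control and 1.91, 2.84 and 1.60 FPKM in PGAM5 KD libraries. Mir142hg, the host of the blood-cell microRNA miR-142, had 14.7, 7.18 and 9.71 FPKM in control and 9.30, 7.16 and 8.69 FPKM in PGAM5 KD libraries. Neither difference passed the threshold and the groups overlapped (adjusted p = 0.27 and 0.43). The precursor genes Mir155 and Mir142 were listed at 0. Besides Snhg20, the members Snhg10, Ftx and 4833445I07Rik also hold microRNA precursors in their exons or introns, and the log2 fold changes of these 3 were -0.46, -0.25 and 0.02, none of them called.

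Of 11 listed immune lncRNAs, 4 were members, of which Ptgs2os2 rose, Malat1 and Neat1 fell and Mir155hg was not called. AW112010, a lincRNA known to be induced in macrophages, was listed at 0 in every library. Of 9 listed symbols of p53, growth and genome stability, Pvt1 and 2900097C17Rik were members and neither was called, the latter narrowly (above). The symbols Norad and Oip5os1 were not found in the annotation, where Norad goes by 2900097C17Rik. The member 1700020I14Rik, which lies 2010 bases from Oip5, was a called fall (-0.34, adjusted p = 0.00725 from limma). Pvt1, which lies 47612 bases from Myc, had between 1.03 and 1.24 FPKM in control and between 0.955 and 1.24 FPKM in PGAM5 KD libraries (-0.02, adjusted p = 0.929), and its sign changed when control replicate 3 was left out (0.030). Of 9 X-linked or imprinted lncRNAs, Ftx was a member and was not called (adjusted p = 0.269). Among 4 ribosomal RNA-like or RNA-quality genes, Gm26917 was a member and fell, and Gm42418, AY036118 and Rmrp were listed at 0. An exact 0 in such a table can be the result of how fragments were counted. The zeros of AW112010 and of these 3 genes are thus given as listed and are not read as absence.

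Members were set beside the nearest protein-coding gene, since some lincRNAs act on or share regulation with their neighbours. The median distance was 10680 bases, 13 gene bodies overlapped a coding gene and 40 members lay within 5000 bases of one, 15 of them with divergent starts. For 88 members the neighbour was itself tested, 84 genes in all. Of the 24 called members among them, 14 had a neighbour that was called too, or 58.3%, beside 27 of 64 members that were not called (42.2%) and 31.7% of all genes tested. In 2 of the 14 pairs both were higher, in 6 both were lower, in 6 the member was lower and the neighbour higher, and in 0 the member was higher and the neighbour lower. Igf2r is the neighbour in 2 of the 6 joint falls, those of CT030636.1 and CT030636.2, so these 2 pairs are not separate loci. These counts are a description of a small number of pairs.

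Ptgs2os2 and Ptgs2, the gene of the inducible cyclooxygenase COX-2, were the pair with the largest joint rise. Ptgs2 rose from 37.5 to 118 FPKM (log2 fold change 1.63, standard error 0.05, adjusted p = 7.42e-06 from limma) and lies 50816 bases from Ptgs2os2, with the genes converging. The other joint rise was that of 3300005D01Rik with Snx9, a sorting nexin gene 38089 bases away (0.21, adjusted p = 0.0209, lost without control replicate 1 or 3 or PGAM5 KD replicate 1 or 3, with an adjusted p up to 0.0669). Among joint falls, CT030636.1 and CT030636.2 both lie upstream of Igf2r, the receptor that carries lysosomal enzymes, which fell from 50.4 to 35.4 FPKM (-0.50, standard error 0.04, adjusted p = 0.000281). AU020206 lies 14429 bases from Akap13, a kinase anchor protein gene, which fell from 13.3 to 8.77 FPKM (-0.55, standard error 0.05, adjusted p = 0.000305).

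Of the 4 pairs that were both called and lay within 5000 bases, 3 fell together and 1, Gm26792 with Cuedc2, had opposite directions. 4632404H12Rik starts 376 bases from Ube2q1, a ubiquitin-conjugating enzyme gene read in the other direction (-0.26, adjusted p = 0.00165 from limma), and Gm16001 starts 33 bases from Ogfod2 (-0.25, adjusted p = 0.0295). Gm38399 fell with Nav1, whose exons it overlaps. In the 6 pairs of opposite direction the neighbour rose, as given in brackets for 5 of them. Gm26792 overlaps the exons of Cuedc2 (0.21), while Gm26520 and Kif3c (0.29) lie 7979 bases apart, Gm38414 and Prag1 (0.26) 8223 bases, Gm34643 and Acod1 (0.29) 22520 bases, and Gm43351 and Rpl34 (0.27) 143675 bases. Gm34643, whose promoter is shown above, had 2.55, 2.19 and 2.26 FPKM in control and 1.29, 1.32 and 1.67 FPKM in PGAM5 KD libraries (-0.46, standard error 0.10, adjusted p = 0.0163). Acod1, which makes itaconate and lies downstream of Gm34643, had means of 565 FPKM in control and 690.4 FPKM in PGAM5 KD libraries. The call of Kif3c was lost without control replicate 1 or 3 or PGAM5 KD replicate 2 or 3 (adjusted p up to 0.0633).

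**Figure D5:**
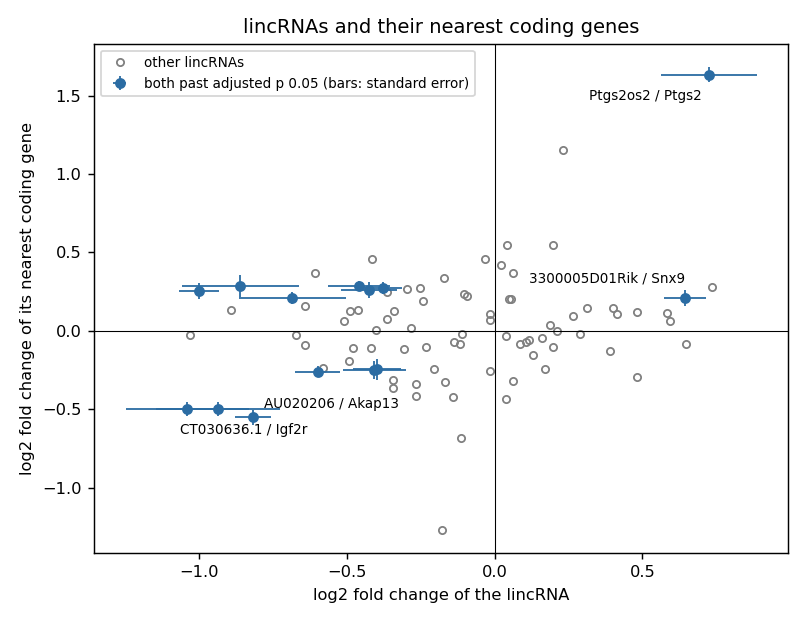
Log2 fold change of the nearest protein-coding gene (y axis) against that of the lincRNA (x axis), both PGAM5 KD minus control on the log2(FPKM + 1) scale, for 88 lincRNAs. Filled points with standard error bars are the 14 pairs in which both passed an adjusted p of 0.05, of which Ptgs2os2 with Ptgs2 stands highest at 0.73 and 1.63.

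For 6 of the 10 largest rises, 3 of the 10 largest falls and 40 of all 128 members the nearest coding gene was under 1 FPKM or not measured. Mc3r beside Gm14275, Tfpi beside Gm13710, Msrb3 beside 4930471E19Rik, Slc2a13 beside 4933438A12Rik and Haao beside C430042M11Rik had group means of at most 0.090 FPKM, and Cdkn2a, which lies 1068 bases from Gm12606, was listed at 0.

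Members also lay close to each other, and such neighbours did not always move alike. Besides Malat1 with Neat1 and the CT030636 pair, which fell together, D330050G23Rik fell (-0.40, adjusted p = 0.0489 from limma) while Gm29340, 59784 bases away on the opposite strand, rose (0.32, adjusted p = 0.00247). Gm29340 had 8.16, 8.32 and 7.91 FPKM in control and 10.3, 10.4 and 10.4 FPKM in PGAM5 KD libraries, so its small rise stood well clear of the spread. Gm10825 and Gm26581 are 99.6% identical over 4480 bases, so the counting could have split fragments between them, and neither was called (0.04 and 0.20). In all, 17 members had at least 95% identity over at least 150 bases to another expressed gene.

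RefSeq held a promoter starting within 100 bases of the GENCODE start for 46 of the 128 members. An ISRE (GAAA, any 2 bases, GAAA; either strand) was in 4.35% of member promoters and 3.44% of all 32851 promoters. The NF-kB motif (GGG, any 3 bases, TTCC) was in 10.9% and 5.56%, an AP-1 site (TGANTCA) in 13.0% and 7.81%, and TATAAA in 2.17% and 13.6%. With 46 promoters these shares rest on 2, 5, 6 and 1 matches. Of 5 higher members with a promoter, 1 held an ISRE (Ptgs2os2, beginning 73 bases before the start) and 2 an AP-1 site (3300005D01Rik and 5033406O09Rik). Of 10 lower members with a promoter, 2 held an AP-1 site (Gm34643 and D330050G23Rik), 1 an NF-kB motif (Gm34643) and 0 an ISRE. Member promoters had a median of 10 CpG, beside 7 for all promoters, with 6 for the 5 higher and 13 for the 10 lower members. A match says that the letters are present, not that a factor binds there.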

How the data were processed

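The authors deposited FPKM per gene for each of 6 libraries of LPS-treated iBMDMs, 3 control and 3 PGAM5 KD, made from poly(A) RNA. The submitters' processing notes name HISAT2 2.0.5, featureCounts 1.5.0-p3 and mm10, and iDEP was used for the study's own tests. Strandedness and the annotation are not given in the sources used here. Gene types, names and exons came from GENCODE M21, which held 54495 of 54532 genes. FPKM times exon length fell on whole fragments within 0.01 for 96.8% to 97.1% of values under 1000 fragments, which gave the depth. FPKM carries no scaling between libraries beyond depth.

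All 10540 genes that averaged 1 FPKM or more were fitted as log2(FPKM + 1) with limma 3.58.1 in R 4.3.3, two-sided, with a trend of variance on level, and p-values were adjusted over all of them after Benjamini and Hochberg. A gene was called at an adjusted p under 0.05. Fold changes on this scale understate the change of low genes. The fit was tested on simulated data. Groups came from the labels. Members and lists were chosen with earlier results of these data known. Named were the 10 members with the highest level, the 10 largest called rises and falls without overlap, members of the symbol lists, their coding neighbours and microRNA precursors, and the genes at the edge of the rule. The neighbour of 1 member is not reported here. Other members named were chosen after their values were seen. Overlaps were found with bedtools 2.31.1 and copies with blastn 2.17.0 (at least 95% identity over 150 bases, another gene at 1 FPKM or more). Alternatives were a pseudocount of 0.1, other filters, scalings and spread estimates, a replicate block, voom, left-out libraries and other member rules.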

Additional observations from a re-analysis of the deposited data

How the results depend on the processing

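Of 717 values for 46 genes (named lincRNAs, coding neighbours and Pgam5) under the alternatives, 642 kept their direction and side of the threshold, 54 lost the call, 14 gained one and 7 changed sign, and 28 of the 46 changed in none. The sign changed for Epb41l4aos under quantile normalization (-0.0028), as TPM (-0.054), with array weights (-0.024), without control replicate 3 (-0.198) and without PGAM5 KD replicate 1 (-0.127), and for Pvt1 without control replicate 3 (0.030) and without PGAM5 KD replicate 3 (0.025), neither of them called, with ranges over left-out libraries of -0.198 to 0.215 and -0.074 to 0.030. The 5 members past both thresholds became 16 with a pseudocount of 0.1 and with voom, 11 as TPM, 2 at a minimum of 5 FPKM, and 3 with array weights, among members from 2 FPKM and among members with 1 FPKM in both groups. The 40 called members became 26 with no filter (8 higher) and 18 at 5 FPKM (4 higher, 14 lower, where 39 members were left). The median of -0.11 became -0.152 with a pseudocount of 0.1, -0.219 at 5 FPKM, -0.21 as TPM, -0.156 with voom, -0.080 from 2 FPKM and -0.056 without exon overlap. Leaving out each library gave 2 to 5 members past both thresholds (2 without PGAM5 KD replicate 3, 3 without control replicate 1 or 3 or PGAM5 KD replicate 1), 30 to 38 called members, 9 to 14 higher, 20 to 26 lower, and medians from -0.143 to -0.090. The median of all genes tested was -0.060 as TPM. The cause of these shifts was not tested.

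Same-numbered libraries did not deviate together (correlations -0.020, 0.016 and -0.052), beside -0.063 to 0.081 for libraries with different numbers. These values show no strong shared deviation, but they cannot tell whether same-numbered libraries were prepared together. With the replicate block 12 members were higher and 22 lower, and 5 passed both thresholds.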
